A study of Mus musculus with 8 samples.

Results

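The promoter regions described here are all those in which the library of induced neurons at 5 dpi differed from the library of mouse embryonic fibroblasts (MEFs) in the lists that the authors deposited. There were 16306 such regions, out of 73538 over the 5 comparisons with MEFs in the series. Of these, 5168 were in the hyper list, with more signal at 5 dpi and called gains below, and 11138 were in the hypo list, with less signal at 5 dpi and called losses. The rows were taken by the 2 libraries that the lists name, and each region was counted once.

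The study followed 5-hydroxymethylcytosine (5hmC) by hMeDIP-seq (an antibody pulls down fragments of DNA with 5hmC, which are then sequenced) while fibroblasts were turned into neurons. The induced neurons were made from MEFs of ICR mice and kept in neuronal medium, and those described here were taken at 5 dpi, an abbreviation that the labels do not spell out. The MEFs, from E13.5 mouse embryos, were kept in fibroblast medium, and both cell types are labelled as passage 3-5. The factors that induced the conversion are not given in the labels. Libraries of induced neurons at 1, 3 and 7 dpi and of primary neurons from the hippocampus of 1-day-old pups were each set against the same MEF library, and serve here only to show what was listed on no other day. Each group was 1 library, so no difference below has a replicate check, and no test between conditions can be made. RNA was not measured, so the label of neuron cannot be checked against marker expression in these files.

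5hmC is made from 5-methylcytosine by the TET enzymes, which oxidise the methyl group. It is a step on the way to unmethylated cytosine, and it is also a lasting mark that is abundant in neurons of the brain and scarce in cells that divide fast. At a gene's start, a gain or a loss of hMeDIP signal says how often fragments with the mark were recovered there, and not whether the gene was transcribed. A shift in the mark of all cells and a shift in the share of cells that carry it cannot be told apart in such bulk libraries.

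The sequences below show what kind of promoter lay under gains and losses. They are the 300-base windows, from 250 bases before to 50 after the RefSeq start (GRCm38.p6, the assembly of mm10), of the genes with the most reads among regions that covered at least 150 bases of such a window, with every CpG dinucleotide in capitals. CpG is the letter pair at which most cytosine modification takes place in mammals. The first 4 lay under gains found only at 5 dpi: Krtap21-1, a hair keratin-associated protein (chr16:89403725-89404024, minus strand), Speg, a kinase of striated muscle (chr1:75385360-75385659, plus strand), Cbx5, the heterochromatin protein HP1 alpha (chr15:103239803-103240102, minus strand), and Trip10, an adaptor between membrane and actin (chr17:57249201-57249500, plus strand).
Krtap21-1: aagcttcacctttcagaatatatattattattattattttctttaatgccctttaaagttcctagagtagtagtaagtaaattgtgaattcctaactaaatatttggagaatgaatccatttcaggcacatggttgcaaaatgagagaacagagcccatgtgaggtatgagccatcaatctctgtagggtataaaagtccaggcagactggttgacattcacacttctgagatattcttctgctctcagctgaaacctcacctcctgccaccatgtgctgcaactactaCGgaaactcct
Speg: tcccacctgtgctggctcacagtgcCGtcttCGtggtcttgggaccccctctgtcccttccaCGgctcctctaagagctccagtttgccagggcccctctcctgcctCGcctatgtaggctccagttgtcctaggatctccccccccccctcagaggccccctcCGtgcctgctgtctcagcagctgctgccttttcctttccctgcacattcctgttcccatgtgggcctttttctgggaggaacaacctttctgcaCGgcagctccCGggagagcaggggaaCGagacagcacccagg
Cbx5: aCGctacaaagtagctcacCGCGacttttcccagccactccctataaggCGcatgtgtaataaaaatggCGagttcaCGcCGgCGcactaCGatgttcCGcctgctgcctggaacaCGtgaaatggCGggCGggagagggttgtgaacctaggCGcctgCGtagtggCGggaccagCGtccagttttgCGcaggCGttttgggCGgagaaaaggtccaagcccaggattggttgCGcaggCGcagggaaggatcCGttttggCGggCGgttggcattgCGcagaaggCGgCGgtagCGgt
Trip10: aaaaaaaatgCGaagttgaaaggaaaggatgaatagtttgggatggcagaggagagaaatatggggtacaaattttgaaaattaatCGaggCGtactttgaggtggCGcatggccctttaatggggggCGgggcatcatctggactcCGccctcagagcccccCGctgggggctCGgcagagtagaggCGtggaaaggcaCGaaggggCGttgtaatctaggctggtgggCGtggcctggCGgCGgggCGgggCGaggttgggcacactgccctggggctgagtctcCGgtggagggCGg
The other 3 lay under losses: Htr6, a serotonin receptor (chr4:139074740-139075039, minus strand), Arfgef2, an exchange factor of vesicle traffic (chr2:166805331-166805630, plus strand), and Shmt2, the mitochondrial serine hydroxymethyltransferase (chr10:127522395-127522694, minus strand).
Htr6: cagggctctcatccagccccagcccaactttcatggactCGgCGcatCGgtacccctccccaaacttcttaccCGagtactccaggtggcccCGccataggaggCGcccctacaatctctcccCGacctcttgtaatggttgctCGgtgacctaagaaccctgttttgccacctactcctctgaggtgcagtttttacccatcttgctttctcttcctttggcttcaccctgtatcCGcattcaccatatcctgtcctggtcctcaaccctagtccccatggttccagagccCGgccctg
Arfgef2: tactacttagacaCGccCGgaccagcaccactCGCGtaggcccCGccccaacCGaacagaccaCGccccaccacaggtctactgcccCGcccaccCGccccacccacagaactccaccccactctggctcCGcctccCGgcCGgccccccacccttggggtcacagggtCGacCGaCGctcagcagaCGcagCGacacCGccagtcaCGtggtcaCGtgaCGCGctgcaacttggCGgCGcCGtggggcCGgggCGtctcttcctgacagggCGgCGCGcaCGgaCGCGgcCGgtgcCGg
Shmt2: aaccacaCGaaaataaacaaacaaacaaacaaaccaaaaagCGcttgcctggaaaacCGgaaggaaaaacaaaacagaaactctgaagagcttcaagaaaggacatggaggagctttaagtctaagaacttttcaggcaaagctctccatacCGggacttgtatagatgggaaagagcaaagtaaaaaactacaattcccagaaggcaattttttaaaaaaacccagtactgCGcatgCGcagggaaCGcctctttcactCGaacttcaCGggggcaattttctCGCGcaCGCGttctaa
The gained windows held 1 CpG at Krtap21-1, 8 at Speg, 29 at Cbx5 and 18 at Trip10, and the lost ones 10 at Htr6, 35 at Arfgef2 and 13 at Shmt2. The median over 23307 RefSeq promoter windows was 12, so each kind held windows below and above that median. The gains had 29, 21, 18 and 16 reads at 5 dpi for Krtap21-1, Speg, Cbx5 and Trip10, against 1 MEF read at Krtap21-1 and 0 at the other 3. At the losses the 5 dpi library had 4 reads at Htr6, 3 at Arfgef2 and 2 at Shmt2, and the MEF library 93, 89 and 85. A comparison of CpG content over all gains and losses is void, since only 72.3% of gains and 72.6% of losses could be matched to a RefSeq promoter window within 250 bp.

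Gains had fewer reads than losses and were shorter. A gain had a median of 10 reads at 5 dpi, with a lowest of 9 and a highest of 329, and 1738 of them stood at 9 reads. The MEF library had 0 reads in 4850 gains (93.8%, 95% exact Clopper-Pearson interval 93.2 to 94.5%). A loss had 0 reads at 5 dpi in 6369 of 11138 regions (57.2%, 56.3 to 58.1%), and a median of 24 MEF reads, with a lowest of 15 and a highest of 128. Summed over all gains there were 64366 reads at 5 dpi and 2182 in MEFs, and summed over all losses 11690 at 5 dpi and 305862 in MEFs. The median length was 260 bp for gains, which covered 1478 kb in all, and 360 bp for losses, which covered 3652 kb. Reads here are whole reads recovered from the deposited values, in which a 5 dpi read counted 1.75 times as much as a MEF read. On that scaled signal the gap was smaller, with a median of 13.2 at 5 dpi for gains and 18.1 in MEFs for losses, and the lowest values were close, 11.9 at 5 dpi for gains and 11.3 in MEFs for losses. A fold includes that factor and takes a library with 0 reads at a floor of 3 reads. It is then given with the words at least, which refer to that floor only and not to counting error. The 95% interval of such a fold starts lower, at 12.4 for the 16.3 of Napb and at 8.86 for the 11.2 of Pknox1. Each 95% interval of a fold, like that of every share, covers counting error only.

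**Figure D1:**
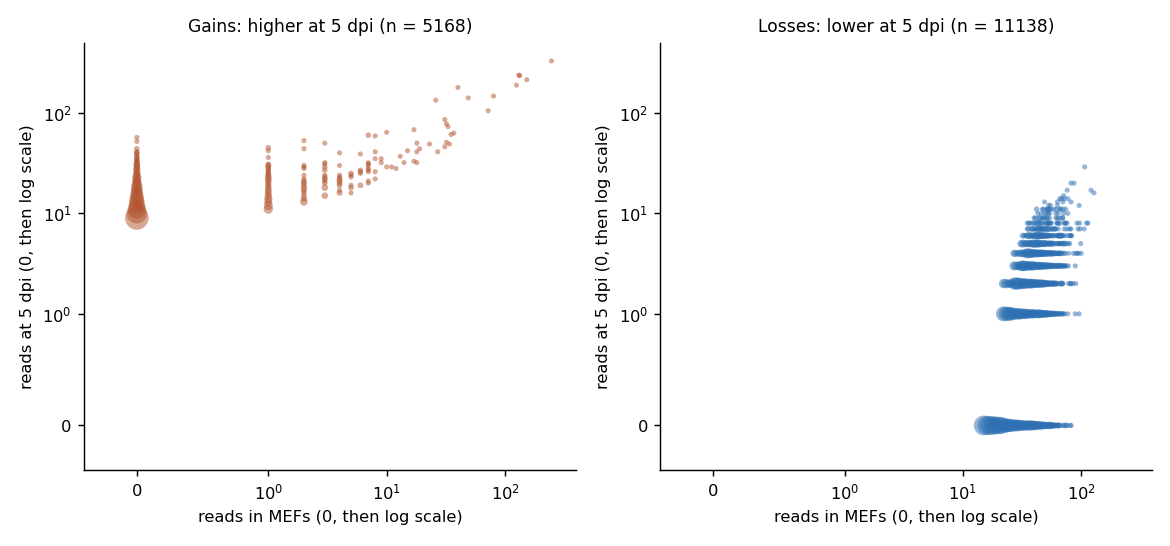
Reads at 5 dpi (vertical axis) against reads in MEFs (horizontal axis) for each promoter region, both axes showing 0 and then a log scale, with gains in the left panel, losses in the right, and larger points for more regions. Most gains stand on the line of 0 MEF reads, between 9 and 57 reads at 5 dpi, and 6369 losses stand on the line of 0 reads at 5 dpi.

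The 2 lists did not end at the same place. In the authors' deposited table the p-value reached 0.000257 among gains and 0.0105 among losses, and these p-values set 1 library against 1 library, not one condition against another. The gains with the highest p-values there were Rn4.5s, a multi-copy small RNA, with 16 reads at 5 dpi and 5 in MEFs, and Slc15a3, a peptide transporter, and Maml2, a Notch coactivator, each with 11 at 5 dpi and 1 in MEFs. The losses with the highest were Ccdc85c and Ifi203, with 11 reads at 5 dpi and 42 in MEFs, and Krt24, a keratin, with 8 at 5 dpi and 35 in MEFs. The share of gains among listed regions, 31.7% (31.0 to 32.4%), rests on these unequal ends. That share was 21.7% at 1 dpi, 22.5% at 3 dpi, 16.4% at 7 dpi and 15.7% in primary neurons, each against the same MEF library.

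At the level of genes, 4460 had a gain at 5 dpi and 8976 a loss. Of the 26220 RefSeq genes used as background, 16.9% had a gain, 34.1% a loss and 6.95% both. The 1831 genes with both were 41.1% of the genes with a gain and 20.4% of those with a loss. In 280 gains the region also touched a loss of the same comparison. In 1697 of the 1831 genes (92.7%) a gain and a loss were listed for the same start. Star, which brings cholesterol into mitochondria, had 13 reads at 5 dpi and 0 in MEFs in 2 gains, and 1 read at 5 dpi against 77 in MEFs in a loss further into the gene. The gains lay at -92 and 338 bp from the start, and the loss at 1418 bp. Dnmt3a, a de novo DNA methyltransferase, had 9 reads at 5 dpi and 0 in MEFs in 2 gains near different starts, and 1 at 5 dpi against 28 in MEFs in a loss 1497 bp past a start.

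Neither kind of region piled up at the start itself. Within 500 bp of it lay 19% of gains (17.9 to 20.1%) and 20.7% of losses (19.9 to 21.4%), and 50.8% of gains and 49.9% of losses lay upstream. Chromosome X held 92 gains, 1.78% of them (1.44 to 2.18%), and 443 losses, 3.98% of them (3.62 to 4.36%), while 4.31% of the background genes are on it. The sex of the embryos is not given in the labels, and its part in these shares was not tested.

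The 5 dpi library had more gains of its own than any other library. Of its 5168 gains, 3689 (71.4%, 70.1 to 72.6%) shared no base with a gain of the 1, 3 or 7 dpi libraries or of primary neurons. Counts of such gains were 2731 of 3415 at 1 dpi (80%), 2113 of 3239 at 3 dpi (65.2%), 1138 of 2204 at 7 dpi (51.6%) and 1370 of 2136 in primary neurons (64.1%). So the 5 dpi library had the longest list and the most gains of its own, but its share of own gains lay between that at 3 dpi and that at 1 dpi. Losses were the opposite: 145 of 11138 (1.3%, 1.10 to 1.53%) were found only at 5 dpi. All 5 comparisons share the MEF library, so a region rich in MEF reads can be listed as lost in each.

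**Figure D2:**
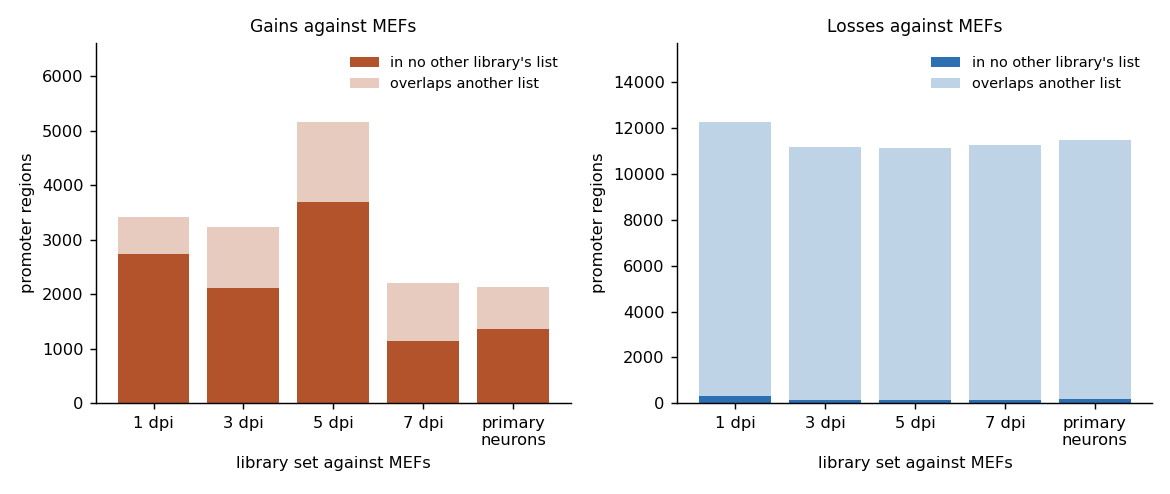
Promoter regions listed against MEFs (vertical axis, count) in each library (horizontal axis), gains in the left panel and losses in the right. The dark part is the regions that overlap no region of the same direction in another library. It is 3689 of 5168 gains at 5 dpi and 145 of 11138 losses.

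Gains found only at 5 dpi had fewer reads than shared ones. Their median was 10 reads at 5 dpi, against 11, 13, 18 and 28 reads for gains that overlapped 1, 2, 3 and 4 of the other hyper lists. At least 15 reads were reached by 10.1% of the gains of this day alone and by 34.6% of the shared ones. Among the 883 gains with at least 15 reads, 371 (42.0%, 38.7 to 45.4%) were of this day alone, and among the 89 with at least 30 reads there were 4. Of these 3689 gains, 1334 belonged to genes with a gain in another library, at the same or another start, and 2355 to genes with none. That left 2172 genes with a gain at 5 dpi only, 48.7% of all genes with one and 8.27% of the background genes. A hypo region of another library overlapped 435 of the 3689, and 662 of all 5168 gains, by at least 1 bp. When the shorter region had to share at least as many bases as it left out, 357 of the 5168 remained.

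**Figure D3:**
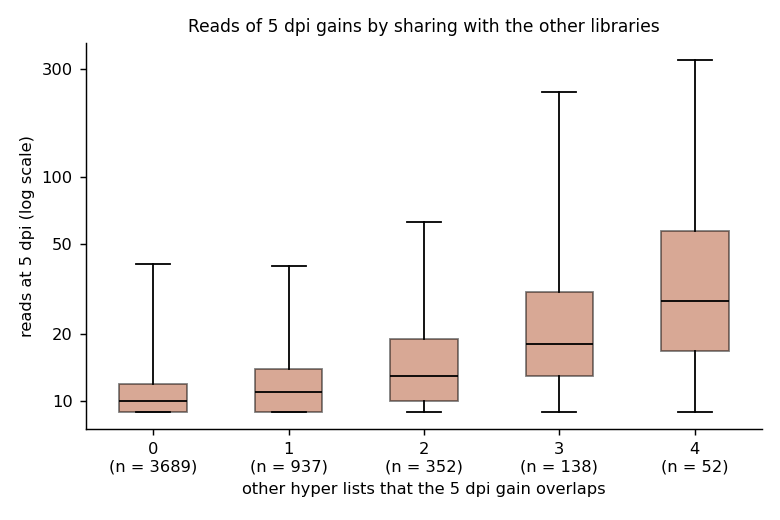
Reads at 5 dpi (vertical axis, log scale) of gains grouped by how many of the other 4 hyper lists they overlap (horizontal axis). Boxes span the quartiles, the line is the median and whiskers reach the lowest and highest region. Medians are 10, 11, 13, 18 and 28 reads.

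The gains with the most reads among genes with no gain in any other library were at Drosha, Krtap21-1, Napb, Ctc1, Brd9, Nos1ap, Tyms-ps, Retnla, Krtap16-3 and Dvl3. Drosha, the nuclease that begins microRNA maturation, had 31 reads at 5 dpi and 3 in MEFs in chr15:12826061-12826640 (mm10), 1536 bp past its start, 18.1-fold more (5.64 to 92.4). Napb, a SNAP protein of neurons that helps take SNARE complexes apart, had 28 at 5 dpi and 0 in MEFs in chr2:148733941-148734560, at least 16.3-fold more. Of the genes just named, Napb, Krtap21-1, Nos1ap, Tyms-ps and Retnla also had a loss at 5 dpi. Brd9, a bromodomain subunit of a BAF chromatin remodeller, had 27 at 5 dpi and 0 in MEFs, at least 15.8-fold more. Nos1ap, an adaptor of neuronal nitric oxide synthase, had the same counts. For Ctc1, a telomere maintenance protein, there were 27 reads at 5 dpi and 3 in MEFs, 15.8-fold more (4.85 to 81.1). Dvl3, a Dishevelled protein of Wnt signalling, had 24 at 5 dpi and 1 in MEFs, 42.0-fold more with an interval of 6.85 to 1727 that shows how little a single MEF read fixes the ratio. The rest were Krtap21-1 with 29 reads at 5 dpi and 1 in MEFs, over which a hypo region with 18 MEF reads was listed at 1 dpi and in primary neurons, the pseudogene Tyms-ps with 26 at 5 dpi and 0 in MEFs, Retnla, a secreted resistin-like protein, with 25 at 5 dpi and 0 in MEFs, and Krtap16-3 with 25 at 5 dpi and 0 in MEFs. Among gains of this day alone whose gene was also gained elsewhere, Dpf2, another BAF subunit, had 36 reads at 5 dpi and 1 in MEFs, Spaca3, a sperm protein, 31 at 5 dpi and 1 in MEFs, and Tppp3, a tubulin-binding protein, 28 at 5 dpi and 2 in MEFs. These 3 were chosen after their values were seen.

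Losses seen on this day alone were few. Pknox1, a homeobox factor, had 0 reads at 5 dpi and 59 in MEFs, at least 11.2-fold fewer. For Oasl1, an antiviral protein, the counts were 6 at 5 dpi and 44 in MEFs, 4.19-fold fewer (1.78 to 12). Zfp58, a zinc finger protein, had 2 at 5 dpi and 38 in MEFs, Cradd, an adaptor of cell death signalling, 3 at 5 dpi and 31 in MEFs, and Asb18, of a ubiquitin ligase family, 2 at 5 dpi and 30 in MEFs. They belong to the 70 genes with a loss in no other library, 0.267% of the background.

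Gains with the most reads overall lay mainly in multi-copy DNA, where reads of near-identical copies cannot be assigned with certainty. Dux, a repeated gene of the early embryo, had 329 reads at 5 dpi and 247 in MEFs, 2.33-fold more (1.97 to 2.76), and 134 at 5 dpi and 26 in MEFs in a second region. Asmt, which makes melatonin and lies in the region shared by X and Y, had 238 at 5 dpi and 131 in MEFs, and 3 regions of Rn45s, the ribosomal RNA precursor, had 235, 214 and 189 at 5 dpi and 133, 153 and 125 in MEFs. At Sp110 there were 179 at 5 dpi and 40 in MEFs in 1 region and 141 at 5 dpi and 49 in MEFs in another, and at Sfi1 147 at 5 dpi and 80 in MEFs, and 105 at 5 dpi and 72 in MEFs. The gene with the most separate gains, 31, was Rn4.5s, with 9 to 73 reads at 5 dpi in each, followed by Sfi1 with 8 and Sp110, Speer7-ps1 and Pisd-ps1 with 5. Each of the 10 regions with the most reads overlapped a gain at 3 dpi, at 7 dpi and in primary neurons.

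Outside such loci and predicted genes, the gains with the most 5 dpi reads and no MEF read were also shared with other libraries. They were listed after their values were seen. Cd244, a receptor of natural killer cells, had 57 reads at 5 dpi and 0 in MEFs, at least 33.3-fold more, and its overlapping gains had 26, 38 and 10 reads at 1, 3 and 7 dpi and 11 in primary neurons. Slc36a1, a lysosomal amino acid transporter, had 52 and 33 reads at 5 dpi in neighbouring gains and 0 MEF reads in both, with 24 reads at 3 dpi, 22 at 7 dpi and 25 in primary neurons over the first. Sgsh, a lysosomal enzyme that breaks down heparan sulfate, had 44 at 5 dpi and 0 in MEFs, with 25 at 3 dpi, 51 at 7 dpi and 19 in primary neurons. St6galnac1, a sialyltransferase, had 40 at 5 dpi and 0 in MEFs, and gains at 3 and 7 dpi with 21 and 31 reads but none in primary neurons. After these came Myom3, a sarcomere protein, with 39 reads at 5 dpi, Defb28, a beta-defensin, with 37, Snx32, a sorting nexin, and Iqcf5 with 36 each, and Zfp872 and Def8 with 35 each, all with 0 MEF reads.

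**Figure D4:**
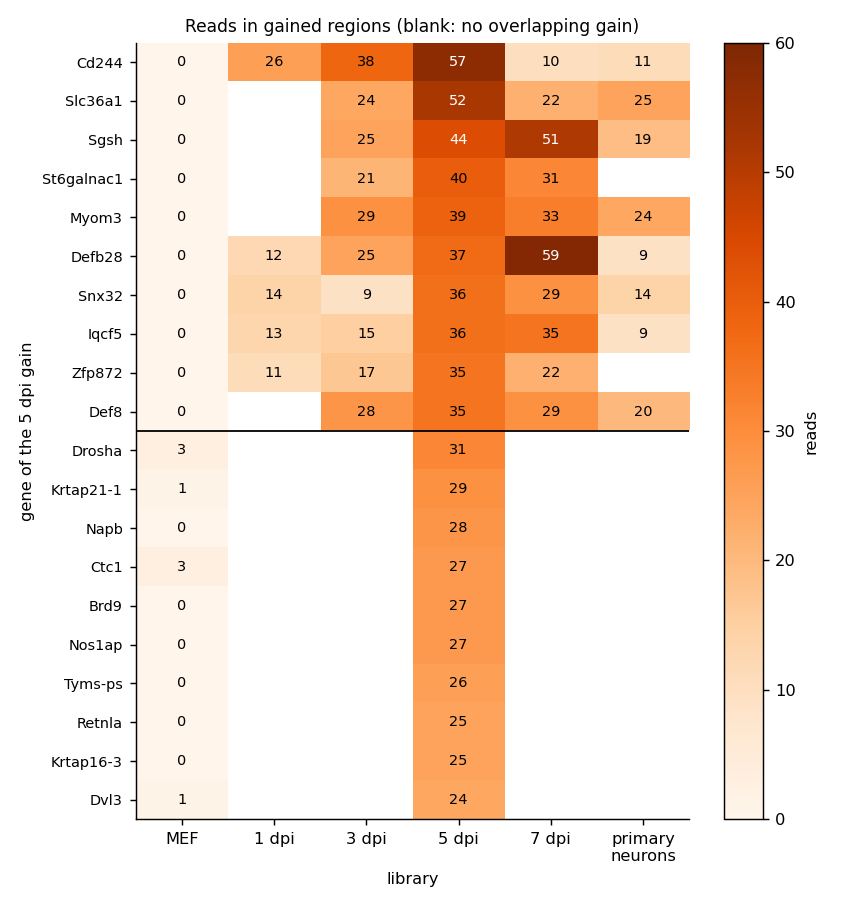
Reads in each library (columns) at the 5 dpi gains (rows): above the line the 10 genes, without predicted ones, with the most 5 dpi reads and 0 MEF reads, below it the 10 gains of genes gained at 5 dpi only. MEF and 5 dpi cells are the counts of the 5 dpi comparison, other cells those of an overlapping gain, whose edges can differ, and blank cells have none. The upper 10 hold 35 to 57 reads at 5 dpi and have gains at 3 and 7 dpi as well.

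A count of 0 MEF reads in a gain was not always a lack of MEF signal at the promoter. Of the 4850 gains with 0 MEF reads, 621 (12.8%) shared bases with a hypo region of this or another comparison, each of which had at least 15 MEF reads. A MEF peak in the authors' list overlapped 326 of the 4850, and 91 (1.88%) held its summit, against 4216 losses (37.9%). Without the gains on a MEF peak 4822 were left. The sources used here do not say how reads were assigned to regions.

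The losses with the most MEF reads were strong and listed in other libraries too. Arl9, a small GTPase, had 16 reads at 5 dpi and 128 in MEFs, 4.57-fold fewer (2.71 to 8.24). Ppef2, a phosphatase of sensory cells, had 17 at 5 dpi and 121 in MEFs, and Plscr4, a phospholipid scramblase, 8 at 5 dpi and 114 in MEFs. Rad50, of the complex that binds DNA breaks, had 4 at 5 dpi and 100 in MEFs, 14.3-fold fewer (5.41 to 53.5). Cyp2c67 had 8 at 5 dpi against 111 in MEFs, Fam186b 7 at 5 dpi and 106 in MEFs, Inadl, a tight junction scaffold, 5 at 5 dpi and 99 in MEFs, Olfr702, an olfactory receptor, 7 at 5 dpi and 98 in MEFs, and Eif2ak4, the amino acid sensor GCN2, 8 at 5 dpi and 97 in MEFs. A region of Rn45s had 29 at 5 dpi and 107 in MEFs, 2.11-fold fewer (1.39 to 3.30), beside the gains in the same repeat.

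Gene lists are described by how many members were listed, beside the shares of all background genes, 16.9% with a gain and 34.1% with a loss. Genes with a gain at 5 dpi only were 8.27% of the background genes, and 48.7% of all genes with a gain. Over all genes the best gain had a median of 11 reads at 5 dpi and the best loss a median of 26 MEF reads. Of the 34 lists, 17 had a share of genes with a gain above the background and 23 a share with a loss above it. No test of a list was made, and in lists as small as 14 genes a few members move such a share.

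**Figure D5:**
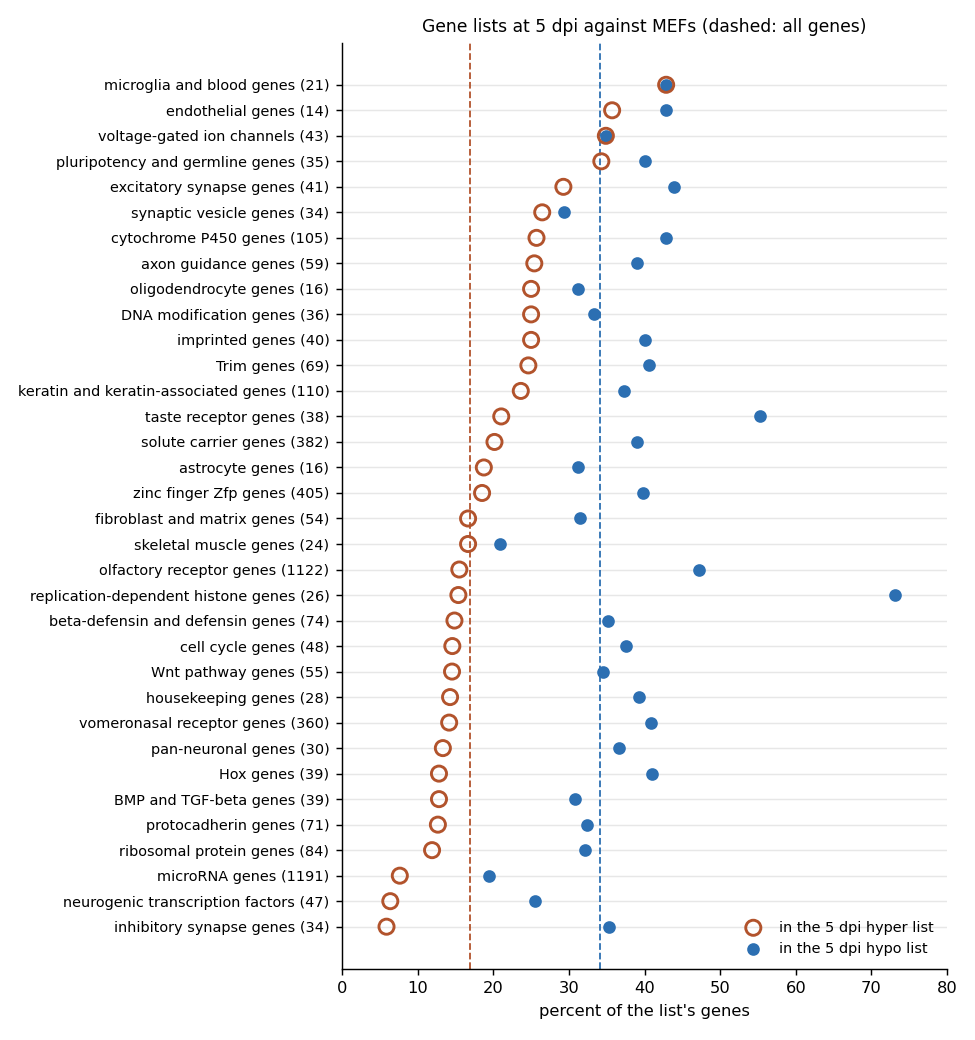
Percent of each list's genes (horizontal axis) with a gain (open circles) or a loss (filled circles) at 5 dpi, lists ordered by the first, their size in brackets, and dashed lines for all background genes at 16.9% and 34.1%. Ion channels, microglia and blood, endothelial and pluripotency genes have the highest shares with a gain, and histone genes the highest with a loss.

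Voltage-gated ion channels, which carry the currents of nerve and muscle, had the highest share of genes with a gain among the neuronal lists. Of 43 genes, 15 (34.9%) had a gain, 15 had a loss and 7 had both. A gain at 5 dpi only was found in 9 (20.9%), against 8.27% of all background genes. The median of the members with a gain was 13 reads, and 7 members (16.3%) reached 15 reads, against 3.01% of all background genes. Cacna1c, an L-type calcium channel, had 20 reads at 5 dpi and 0 in MEFs, at least 11.7-fold more, and a loss with 2 at 5 dpi and 33 in MEFs. Kcnh1, a potassium channel, had a gain of this day alone with 18 at 5 dpi and 0 in MEFs. Kcnd3, of the transient potassium current, had only a loss, with 0 at 5 dpi and 39 in MEFs.

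Genes of the excitatory synapse were listed in both directions. Of 41, 12 (29.3%) had a gain, with a median of 11.5 reads, and 18 (43.9%) a loss, and 8 had both. Homer2, a postsynaptic scaffold, and Slc17a7, the vesicular glutamate transporter VGLUT1, had 19 reads at 5 dpi and 0 in MEFs each, at least 11.1-fold more. Homer2 also had a loss, with 2 at 5 dpi and 31 in MEFs. Grik4, a kainate receptor subunit, had 16 at 5 dpi and 0 in MEFs in a gain that overlapped a MEF peak. Over this gain a hypo region with 27 MEF reads was listed at 1 and 7 dpi. Directly beside it lay a loss at 5 dpi, with 0 reads against 27 in MEFs. Losses were led by the scaffold Dlgap1 with 8 at 5 dpi and 63 in MEFs, the NMDA receptor subunit Grin2d with 6 at 5 dpi and 63 in MEFs, and the glutamate receptor Grm5 with 0 at 5 dpi and 61 in MEFs. None of the 3 leading gains was of this day alone. A gain at 5 dpi only was found in 3 members (7.32%), near the 8.27% of all background genes.

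Vesicle release genes had 9 members of 34 (26.5%) with a gain and 10 (29.4%) with a loss. After Napb, Unc13a, which primes vesicles, had 19 reads at 5 dpi and 1 in MEFs, 33.3-fold more (5.29 to 1382), and Sv2b, a vesicle glycoprotein, 14 at 5 dpi and 0 in MEFs. Unc13b, its relative, went the other way with 2 at 5 dpi and 53 in MEFs, as did Sv2c with 0 at 5 dpi and 47 in MEFs and the active zone scaffold Rims1 with 2 at 5 dpi and 42 in MEFs. Inhibitory synapse genes had few gains, 2 of 34 (5.88%), and 12 losses (35.3%). The GABA-B receptor Gabbr1 had a gain with 9 at 5 dpi and 0 in MEFs, while the calcium buffer Calb2 had a loss with 1 at 5 dpi and 40 in MEFs, and the peptide Cck 3 at 5 dpi and 38 in MEFs.

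Pan-neuronal genes had a share of gains below the background. Of 30, 4 (13.3%) had one, none with 15 reads, and 11 (36.7%) had a loss. The RNA-binding protein Elavl3 had 13 reads at 5 dpi and 0 in MEFs in a gain of this day alone, and 1 at 5 dpi against 30 in MEFs in a loss nearer its start. The syntaxin Stx1a had 11 at 5 dpi and 0 in MEFs, and the granule protein Scg2 had 10 at 5 dpi and 0 in MEFs. Stx1a also had a loss, with 2 at 5 dpi and 29 in MEFs. The losses with the most MEF reads were Elavl4 with 2 at 5 dpi and 45 in MEFs, the adhesion molecule Ncam1 with 5 at 5 dpi and 40 in MEFs, and the calcium sensor Syt1 with 3 at 5 dpi and 31 in MEFs. Rbfox3, Map2 and Tubb3, widely used markers of neurons, were in neither list.

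Neurogenic transcription factors had even fewer gains, 3 of 47 (6.38%), and 12 losses (25.5%). Myt1, a zinc finger factor, had 17 reads at 5 dpi and 0 in MEFs, and the homeobox factors Lhx5 and Prox1 had 10 and 9 at 5 dpi and 0 in MEFs. These gains were of this day alone as regions, but each gene had another gain in some other library. Lhx5 and Prox1 also had a loss at 5 dpi, with 0 reads against 18 in MEFs and 1 against 22. St18 had a loss with 0 at 5 dpi and 45 in MEFs, and Pax6, of neural progenitors, one with 2 at 5 dpi and 37 in MEFs. Pou3f2, Myt1l and Neurod1, factors known for turning other cells into neurons, were in neither list.

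Axon guidance genes had 15 members of 59 (25.4%) with a gain, 9 of which also had a loss, and 23 (39.0%) with a loss. The netrin receptor Dcc had 18 reads at 5 dpi and 0 in MEFs. Its gain shared bases with a MEF peak and with a loss that had 2 at 5 dpi and 53 in MEFs. The semaphorin Sema3f had 17 at 5 dpi and 0 in MEFs, and the roundabout receptor Robo4 14 at 5 dpi and 0 in MEFs. Over these 3 gains a hypo region was listed at 3 dpi, with 41 MEF reads at Dcc, 15 at Sema3f and 29 at Robo4. Ntn4, a netrin, had 1 at 5 dpi and 44 in MEFs, and its receptor family member Unc5a 2 at 5 dpi and 41 in MEFs.

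Fibroblast and matrix genes stood near the background, with 9 gains in 54 genes (16.7%), none with 15 reads, and 17 losses (31.5%). Ctgf, a matricellular growth factor, had 12 reads at 5 dpi and 0 in MEFs, Mmp14, a membrane metalloproteinase, 11 at 5 dpi and 0 in MEFs, and the collagen Col14a1 10 at 5 dpi and 0 in MEFs. S100a4, a fibroblast marker, had 2 at 5 dpi and 54 in MEFs, 15.4-fold fewer (4.07 to 131), and the collagens Col5a2 and Col6a2 4 at 5 dpi and 52 in MEFs, and 5 at 5 dpi and 42 in MEFs. Cd44, a hyaluronan receptor, had 0 at 5 dpi and 27 in MEFs, at least 5.14-fold fewer, and Col1a1 was in neither list.

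The machinery of DNA modification had 9 gains in 36 genes (25%) and 12 losses (33.3%). Tet2, which makes 5hmC, had 20 reads at 5 dpi and 0 in MEFs, at least 11.7-fold more, at -1280 bp from its start, and an overlapping gain with 10 reads in primary neurons. Tet1 had a loss with 0 at 5 dpi and 17 in MEFs, at least 3.24-fold fewer, and Tet3 was in neither list. Zbtb4, a reader of methylated DNA, had 15 at 5 dpi and 0 in MEFs, and Idh1, which makes the co-substrate of TET enzymes, 14 at 5 dpi and 0 in MEFs. Losses were led by the methyl-binding proteins Mbd1 with 5 at 5 dpi and 46 in MEFs and Mbd3 with 1 at 5 dpi and 40 in MEFs, and by Zbtb33, called Kaiso, with 2 at 5 dpi and 33 in MEFs. The Dnmt3a gains were of this day alone, while Dnmt1 and Dnmt3b were in neither list.

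In lists of other cell types, 16.7% to 42.9% of the genes had a gain, against 5.88% to 34.9% in the neuronal lists. Microglia and blood genes had 9 gains in 21 (42.9%), with a median of 13 reads, and 9 losses. Sfpi1, the myeloid factor PU.1, had 31 reads at 5 dpi and 0 in MEFs, at least 18.1-fold more, the haemoglobin gene Hba-a1, of a near-identical pair, 18 at 5 dpi and 0 in MEFs, and the microglial marker Tmem119 18 at 5 dpi and 0 in MEFs. The Tmem119 gain overlapped a MEF peak, and a hypo region with 59 MEF reads was listed over it at 1 dpi. Losses in this list were small, with a median of 16 MEF reads against 26 over all genes, led by Emr1 with 1 at 5 dpi and 26 in MEFs. Endothelial genes had 5 gains in 14 (35.7%) and 6 losses (42.9%), and 3 genes had both. Among the gains, the growth factor receptor Flt4 had 13 at 5 dpi and the cadherin Cdh5 had 11, both with 0 in MEFs. Pluripotency and germline genes had 12 gains in 35 (34.3%) and 14 losses (40%), and 4 genes had both. Of the 35, 7 (20%) were gained at 5 dpi only, against 8.27% of all background genes. Nanog, a core factor of embryonic stem cells, had 29 at 5 dpi and 0 in MEFs, at least 16.9-fold more, but the median of the gains in this list was 9 reads and only Nanog reached 15.

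Astrocyte genes had 3 gains in 16 (18.8%) and oligodendrocyte genes 4 in 16 (25%). Each of these lists had 5 losses (31.25%). Aldh1l1, an astrocyte enzyme of folate metabolism, had 30 reads at 5 dpi and 1 in MEFs, with overlapping gains of 16 reads at 3 dpi and 32 at 7 dpi. The glutamate transporter Slc1a2 had 21 at 5 dpi and 0 in MEFs, and the myelin glycoprotein Mag 16 at 5 dpi and 0 in MEFs. Skeletal muscle genes had 4 gains in 24 (16.7%) and 5 losses (20.8%). The gains were Myf6 with 13 at 5 dpi, Myh2 with 12, and Myod1 and Tnnc2 with 9, each with 0 in MEFs. All 4 genes were gained at 5 dpi only, as were 48.7% of all genes with a gain. Housekeeping genes had 4 gains in 28 (14.3%), each at the lowest count of 9 reads at 5 dpi and 0 in MEFs, Gapdh among them, and 11 losses (39.3%), led by Eef2 with 3 at 5 dpi and 53 in MEFs. The part of other cells in the culture in any of these counts was not tested.

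Signalling and dosage genes showed single strong gains. Wnt pathway genes had 8 gains in 55 (14.5%) with a median of 17.5 reads, and 5 of them (9.09% of the list) reached 15 reads. Rspo3, a secreted enhancer of Wnt signalling, had 25 reads at 5 dpi and 1 in MEFs, Dvl3 the values above, and the ligand Wnt8a 23 at 5 dpi and 0 in MEFs in a gain on a MEF peak. Losses were 19 (34.5%). BMP and TGF-beta genes had 5 gains in 39 (12.8%) and 12 losses (30.8%). The signal transducer Smad4 had 16 reads at 5 dpi and the ligand Nodal 15, both with 0 in MEFs. Both genes were gained at 5 dpi only. Imprinted genes had 10 gains in 40 (25%) and 16 losses (40%). Mest had 23 reads at 5 dpi and 0 in MEFs in a gain of this day alone, at -115 bp from its start, Slc22a18 had 15 at 5 dpi and 0 in MEFs, and Dlk1 and Meg3, neighbours in 1 cluster, 13 at 5 dpi and 0 in MEFs each, while Meg3 also had a loss with 0 at 5 dpi and 40 in MEFs and Igf2, a fetal growth factor, one with 1 at 5 dpi and 35 in MEFs.

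Cell cycle genes had 7 gains in 48 (14.6%) and 18 losses (37.5%). Cdkn1a, the cell cycle inhibitor p21, had 17 reads at 5 dpi and 0 in MEFs, at least 9.92-fold more, 339 bp past its start and at 5 dpi only, and a loss as well. Mki67, a marker of dividing cells, had 10 at 5 dpi and 0 in MEFs. The transcription factor E2f1 had 1 at 5 dpi and 49 in MEFs, 28.0-fold fewer (4.8 to 1128), and the tumour suppressor Rb1 1 at 5 dpi and 46 in MEFs. Replication-dependent histone genes, which supply new chromatin in S phase, had a loss in 19 of 26 (73.1%), led by Hist1h4f with 4 at 5 dpi and 57 in MEFs, Hist1h1c with 6 at 5 dpi and 53 in MEFs and Hist1h3g with 0 at 5 dpi and 47 in MEFs. Their 4 gains, 9 or 10 reads each, were all in genes gained at 5 dpi only. Such genes were 15.4% of this list and 8.27% of all background genes. The genes lie close together, so 1 region can stand near several of them.

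Gene families that repeat along the genome had shares above and below the background. Olfactory receptors had a loss in 529 of 1122 (47.1%) and a gain in 174 (15.5%), vomeronasal receptors a loss in 147 of 360 and a gain in 51, and taste receptors a loss in 21 of 38 (55.3%) and a gain in 8 (21.1%). The leading olfactory receptor gain was Olfr373 with 28 reads at 5 dpi and 0 in MEFs, and the leading losses, after Olfr702, were Olfr461 with 4 at 5 dpi and 95 in MEFs and Olfr677 with 0 at 5 dpi and 74 in MEFs. Among bitter taste receptors, Tas2r139 had a gain of this day alone with 24 at 5 dpi and 0 in MEFs, and Tas2r118 a loss with 2 at 5 dpi and 81 in MEFs. Hox genes, which set position along the body, had 5 gains and 16 losses in 39, with Hoxb13 at 17 reads at 5 dpi and 0 in MEFs and Hoxa2, a loss, with 3 at 5 dpi and 44 in MEFs. Cytochrome P450 genes had 27 gains in 105 (25.7%) and 45 losses (42.9%), and 13 genes had both. The gains were led by Cyp26b1, which breaks down retinoic acid, with 24 at 5 dpi and 0 in MEFs and at 5 dpi only. In the Trim family, 17 of 69 (24.6%) had a gain, led by Trim71, a stem cell ubiquitin ligase, with 23 at 5 dpi and 1 in MEFs, and 28 (40.6%) a loss, led by Trim43c with 4 at 5 dpi and 90 in MEFs. Keratins and their associated proteins had 26 gains in 110 (23.6%), among them the pair of Krtap genes above, and 41 losses (37.3%).

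The other families, too, had shares above and below the background. Genes with a gain numbered 11 of 74 defensins (14.9%), 75 of 405 zinc finger Zfp genes (18.5%) and 77 of 382 solute carriers (20.2%). They numbered 10 of 84 ribosomal protein genes (11.9%) and 9 of 71 protocadherins (12.7%). Genes with a loss numbered 26 (35.1%), 161 (39.8%), 149 (39.0%), 27 (32.1%) and 23 (32.4%) in the same order. Slc36a1 led the solute carriers, and Slc5a11, a sugar and inositol transporter, followed with 30 reads at 5 dpi and 0 in MEFs. Rps26 had 15 at 5 dpi and 0 in MEFs, and Pcdhb13 had 14 at 5 dpi and 0 in MEFs, while Pcdha6 had 6 at 5 dpi and 82 in MEFs. In families with near-identical copies the assignment of reads to a copy is uncertain.

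Of 1191 microRNA genes, 91 (7.64%) had a gain and 231 (19.4%) a loss, both below the background shares. The mature sequences of those with the most reads and an entry in RefSeq at that place are given 5′ to 3′, with the seed, bases 2 to 8, in capitals, to show that no seed was shared among them. Mir1981 and Mir705 had gains, and Mir532, Mir130b and Mir205 losses.
miR-1981-5p: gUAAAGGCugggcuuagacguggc
miR-1981-3p: cAUCUAACccuggccuuugac
miR-705: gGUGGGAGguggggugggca
miR-532-3p: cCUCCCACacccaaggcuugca
miR-130b-5p: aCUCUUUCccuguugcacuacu
miR-130b-3p: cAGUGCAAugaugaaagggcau
miR-205-5p: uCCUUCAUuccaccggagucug
miR-205-3p: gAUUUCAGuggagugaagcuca
At Mir1981 there were 42 reads at 5 dpi and 1 in MEFs, 508 bp past its start, and at Mir705 21 at 5 dpi and 0 in MEFs in a gain of this day alone. Mir532 had 2 at 5 dpi and 90 in MEFs, 25.7-fold fewer (6.91 to 216), Mir130b 6 at 5 dpi and 58 in MEFs, and Mir205, a microRNA of epithelia, 0 at 5 dpi and 58 in MEFs, at least 11-fold fewer. The start of a microRNA entry is that of its hairpin, which can lie far from the promoter of the transcript that holds it.

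The peak lists, of which the authors deposited 1 per library, gave a stricter view of the same promoters. The 5 dpi library had 1100 peaks, of which 22 were at promoters, 282 in gene bodies and 796 between genes. Of the 22, 17 lay on a gain and 1 on a loss, and 7 overlapped a MEF peak. Only 25 gains (0.484%, 0.313 to 0.713%) lay on a 5 dpi peak, with a median of 28 reads, and 1 of them, at Cdk15, was of this day alone. On a MEF peak lay 5537 losses (49.7%, 48.8 to 50.6%). The 2 shares cannot be compared, since they rest on peak lists of unlike length. The 5 dpi list had only 22 promoter peaks for gains to meet, while 4216 losses held the summit of a MEF peak. Cdk15, a cyclin-dependent kinase, had the promoter peak with the highest fold enrichment in the authors' list, 6.94, over 2 gains with 17 and 16 reads at 5 dpi and 0 in MEFs, and a MEF peak overlapped it too. Over the first of these gains, the one on this day alone, hypo regions were listed in all 4 other comparisons, with up to 90 MEF reads at 1 dpi and up to 74 in the other 3. H60b, a ligand of a natural killer cell receptor, had a peak over a gain with 53 reads at 5 dpi and 2 in MEFs, 46.4-fold more (12.2 to 393), and Parvg, a focal adhesion protein of blood cells, one over a gain with 30 at 5 dpi and 1 in MEFs. These 3 were chosen after their values were seen.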

How the data were processed

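5hmC was measured by hMeDIP-seq in 6 libraries, of which those of induced neurons at 5 dpi and of MEFs are compared here. CASAVA and Bowtie2 2.1.0 were used with mm10, per the submitters' processing notes. The differential caller, its settings and the library totals are not stated in those notes or in the labels. The 5 dpi label names the code of primary neurons for its hyper list, and the codes in the column headers were followed. The deposited columns named count hold a scaled signal. Dividing a library's values by a single factor, found here, gave whole reads within 0.1 for 100% of the values of this comparison. The deposited p-value and q-value compare 1 library with 1 library. The authors' peak lists, per the file headers, give whole tag counts at the summit, fold enrichment as a ratio and −log10 of q.

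Regions were counted once per locus with python 3.11.15, pandas 2.3.3, numpy 2.4.6, scipy 1.17.1 and matplotlib 3.10.9. Overlap meant at least 1 bp, and steps were tested on simulated data. Shares have exact Clopper-Pearson and ratios exact conditional Poisson intervals at 95%. A 0 was set to a floor of 3 reads in a fold. The gene background was 26220 RefSeq genes. With 1 library per group, no test between conditions was made.

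Named genes, without predicted ones, were the 10 regions per direction with the most reads in the higher library, up to 3 members per list and direction by the same measure, the 10 gains and 5 losses with the most reads whose gene was listed that way in no other library, the 5 genes with the most gains, the 3 regions per direction with the largest p-value, and 18 fixed genes. Kcnh1, Tnnc2, Igf2 and the Meg3 gain, lower in their lists, and the genes whose promoter sequences are shown were added after their values were seen. The members and lists were chosen with earlier results of these data known. Some genes that this rule names are not reported here.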

Additional observations from a re-analysis of the deposited data

Results flagged for a closer look

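Of 192 regions of 157 named genes that were compared with the other libraries, 19 regions of 17 genes overlapped a region that another library listed in the opposite direction, with none there in the same direction. Over all regions, one of opposite direction in another library overlapped 662 of 5168 gains and 724 of 11138 losses. Those counts include regions that also met one of the same direction. They rest on an overlap of at least 1 bp, and 357 of the gains remained under the stricter overlap given above. Each library has no replicate, the regions differ in their edges, and the differences between libraries were not tested.

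Over the Cdk15 gains, with 17 and 16 reads at 5 dpi and 0 in MEFs, the hypo regions had 11 reads at 1 dpi against 90 in MEFs, 15 at 3 dpi against 74 in MEFs and 14 in primary neurons against 74 in MEFs. The first gain also met one with 19 reads at 7 dpi against 74 in MEFs. Krtap21-1 was higher at 5 dpi, with 29 reads against 1 in MEFs, and lower at 1 dpi and in primary neurons, with 0 reads against 18 in MEFs in both. Spaca3, with 31 at 5 dpi against 1 in MEFs, had 5 at 1 dpi against 43 in MEFs and 2 at 7 dpi against 27 in MEFs. At 1 dpi the opposite direction was listed for Mir1981, with 42 reads at 5 dpi and 1 in MEFs, Myom3 with 39 at 5 dpi and 0 in MEFs, Parvg with 30 at 5 dpi and 1 in MEFs, and Tmem119 with 18 at 5 dpi and 0 in MEFs. Their regions at 1 dpi had 0 reads against 18 in MEFs at Mir1981, 0 against 16 at Myom3, 0 against 17 at Parvg and 3 against 59 at Tmem119.

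Among genes of the neuronal lists, axon guidance included, Dcc had 18 reads at 5 dpi and 0 in MEFs. The hypo regions over it had 6 at 3 dpi against 41 in MEFs, 4 at 7 dpi against 53 in MEFs and 3 in primary neurons against 41 in MEFs. This gain also shared bases with the Dcc loss at 5 dpi, which had 2 reads against 53 in MEFs. Grik4, with 16 at 5 dpi and 0 in MEFs, had 1 read against 27 in MEFs at 1 and at 7 dpi. The 5 dpi library also had a Grik4 loss directly beside this gain, with 0 reads against 27 in MEFs. Robo4, with 14 at 5 dpi and 0 in MEFs, had 1 at 3 dpi and 3 at 7 dpi, each against 29 in MEFs, and Sema3f, with 17 at 5 dpi and 0 in MEFs, had 0 at 3 dpi against 15 in MEFs. A smaller gain of Ncam1, with 9 at 5 dpi and 0 in MEFs, met hypo regions with 40 MEF reads at 3 and 7 dpi and in primary neurons. It also shared bases with the Ncam1 loss at 5 dpi, which had 5 reads at 5 dpi and 40 in MEFs.

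Wnt8a had 23 at 5 dpi and 0 in MEFs, and 4 at 7 dpi and 3 in primary neurons against 38 in MEFs in both, while its loss, with 4 at 5 dpi and 38 in MEFs, met a gain with 27 at 3 dpi and 0 in MEFs. Slc22a18 had 15 at 5 dpi and 0 in MEFs, and 0 at 7 dpi against 18 in MEFs. A gain of Zbtb33, with 9 at 5 dpi and 0 in MEFs, met hypo regions with 33 MEF reads at 1 and 3 dpi. Near this gain the 5 dpi library had a loss with 2 reads against 33 in MEFs. Cradd was lower at 5 dpi, with 3 reads against 31 in MEFs, and higher at 7 dpi, with 9 reads against 0 in MEFs, as was a loss of Hba-a1 with 0 at 5 dpi and 16 in MEFs.

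At 15 further regions, those of Dux and Rn45s among them, the other library listed overlapping regions in both directions.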

How the results depend on the processing

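Gains numbered 883 with at least 15 reads and 2387 with the authors' p below 1e-05, and losses 5676 with that p. Losses without a MEF peak, an alternative chosen after seeing the data, numbered 5601. The share of gains was 29.6% with that p and 33.2% over gene symbols. Gains found only at 5 dpi numbered 371 with at least 15 reads, and stayed between 2482 and 5088 over the other definitions of sharing. Losses found only at 5 dpi numbered 73 when any loss at the same start counted as shared, 5443 with identical loci only and 237 without primary neurons. Without the library factor every fold of a gain would be 1.75 times smaller and every fold of a loss 1.75 times larger. With at least 15 reads, the number of genes with a gain moved by over 1.5 times in 33 of 34 lists. The CpG alternative was not run, since that comparison is void. No paired analysis was possible because each group has 1 library, and for the same reason none could be left out. The number of reads limits every gain, most of which stand close to the lowest count listed.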
